A study of Mus musculus with 8 samples.

Results

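The genes described here encode the proteins of the cytosolic ribosome. They were taken from a table of 31228 mouse genes as the protein-coding rows whose symbol is that of a small-subunit (Rps), large-subunit (Rpl) or stalk (Rplp) protein, and 81 rows met that rule: 31 small-subunit genes, 47 large-subunit genes and 3 stalk genes. The series compares duct epithelium of C57BL/6 mice with organoids grown from it, for 2 organs. One library each was made from freshly isolated bile duct epithelium and pancreatic duct epithelium, and 3 libraries each from bile duct organoids and pancreatic duct organoids. The epithelia were lysed directly after dissection and collagenase IV digestion. The organoids had been grown in Matrigel, a basement membrane extract, for 3 to 4 passages in medium with B27, N-acetylcysteine, EGF, FGF10, R-Spondin-1, Noggin and nicotinamide, with Wnt3A conditioned medium and the ROCK inhibitor Y27632 at the start only. The labels name no genetic change, so the groups differ by organ and by culture. The age and sex of the mice are not given in the labels, and nothing in them says that organoids of one organ came from different animals, so p-values here measure the spread between these libraries, which may be technical.

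The ribosome is built from ribosomal RNA and one copy of most of these proteins, so their mRNAs are made in similar amounts and are among the most abundant in any growing cell. Most of these mRNAs start with a C followed by a run of pyrimidines, the terminal oligopyrimidine (TOP) tract, through which mTORC1 and the RNA-binding protein LARP1 control their translation. Because the mRNAs are short and abundant, mammalian genomes hold many processed pseudogenes, intronless copies made from them by reverse transcription. A read from such an mRNA can match its gene and its copies nearly equally well.

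The copies matter for what follows, and 3 pairs show how close they are. In each pair below, a 60-base stretch of the gene's coding sequence is set above the same stretch of the copy, capitals mark the bases that differ, and positions count from the A of the start codon in the GENCODE M21 transcript (GRCm38). Rps2 (chromosome 17, 24718116 to 24721929, plus strand) encodes a small-subunit protein near the mRNA entry, and its copy Rps2-ps13 (chromosome X, 52898588 to 52899469, plus strand) is a processed pseudogene. Rpl26 (chromosome 11, 68901583 to 68906989, plus strand) encodes a large-subunit protein near the exit tunnel, and Gm15772 (chromosome 5, 3236431 to 3236868, plus strand) is its processed copy. Rpl12 (chromosome 2, 32961559 to 32965345, plus strand) encodes a protein at the base of the stalk, and Gm10275 (chromosome 10, 29698746 to 29699380, minus strand) is a transcribed processed copy.
Rps2, coding bases 25 to 84: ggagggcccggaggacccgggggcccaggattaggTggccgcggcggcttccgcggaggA
Rps2-ps13: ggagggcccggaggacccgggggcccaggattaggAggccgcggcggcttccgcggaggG
Rpl26, coding bases 118 to 177: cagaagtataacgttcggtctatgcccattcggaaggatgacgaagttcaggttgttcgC
Gm15772: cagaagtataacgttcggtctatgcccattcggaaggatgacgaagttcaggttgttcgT
Rpl12, coding bases 1 to 60: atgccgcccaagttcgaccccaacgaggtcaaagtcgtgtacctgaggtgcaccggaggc
Gm10275: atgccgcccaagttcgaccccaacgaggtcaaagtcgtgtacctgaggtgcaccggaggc
Over the whole coding sequence Rps2 and Rps2-ps13 differed at 7 of 879 bases and Rpl26 and Gm15772 at 2 of 435. Rpl12 and Gm10275 differed at 0 of 495 bases. In all, 706 rows of the table were near copies of a member (at least 85% identical over at least 80% of the copy's length and 150 bases), 680 of them annotated as pseudogenes. Of the 81 members, 77 had at least 1 copy, with a median of 6 and a maximum of 56 for Rpl21.

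The start sites were searched for the TOP tract. RefSeq promoters on GRCm38.p6 were matched by symbol for 61 of the 81 members. A C at the annotated start followed by at least 4 more pyrimidines, read on the gene's own strand, was present in 13 of these 61 members (21.3%) and in 813 of all 27025 genes with a promoter (3.01%). With the C allowed within 5 bases of the start, the counts were 29 members (47.5%) and 21.2% of all genes. The 5 windows below run from 10 bases before the annotated start to 20 bases after it, with the tract in capitals. They are shown because they cover both subunits and the stalk.
Rps6, chr4:86857348-86857377, minus strand: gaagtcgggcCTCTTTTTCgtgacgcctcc
Rps27, chr3:90213629-90213658, minus strand: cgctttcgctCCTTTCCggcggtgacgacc
Rpl15, chr14:18270967-18270996, minus strand: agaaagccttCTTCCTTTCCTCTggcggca
Rpl28, chr7:4792955-4792984, plus strand: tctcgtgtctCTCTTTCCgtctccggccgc
Rplp2, chr7:141447641-141447670, plus strand: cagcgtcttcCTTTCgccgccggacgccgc
A match describes these letters only, and the libraries measure mRNA level, not translation.

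Levels are given in FPKM, fragments per length of exon and sequencing depth, after rescaling the 8 libraries to each other by a trimmed mean of log ratios (scaled FPKM). The step between low values gave 12.9 M to 20.8 M counted reads (M, mega) per library. The libraries differed in what else they held. Transcripts of the mitochondrial genome took 24.9% (bile duct) and 18.8% (pancreatic duct) of the FPKM total in epithelium, and 5.43% to 7.29% in organoids. The 11 acinar enzyme genes, which mark the exocrine cells around pancreatic ducts, summed to 27843 (bile duct) and 57698 (pancreatic duct) scaled FPKM in the epithelia and to 1.65 to 7.65 in organoids, where 6 of the 11 were at 0 in every library. The 9 epithelial markers (Epcam, Krt19 and others) summed to 2557 (bile duct) and 563 (pancreatic duct) in the epithelia and to 4314 to 10829 in organoids. Fibroblast, smooth muscle and endothelial marker sums were 1842, 2223 and 379 in the epithelium of bile duct, 1927, 4004 and 658 in that of pancreatic duct, and no higher than 2.48 in any organoid. Immune markers summed to 1147 and 801 in the epithelia (bile duct first) and to 2.28 to 11.98 in organoids, and hepatocyte markers to 370 and 96.2 in the epithelia and to 8.37 to 137 in organoids. The part of these other cells in the comparisons of epithelium with organoids was not tested, and in bulk RNA fewer cells of a type and less RNA per cell cannot be told apart.

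Ribosomal protein mRNA took a larger share of the organoid libraries than of the epithelia. The 81 genes held 4.66% of the FPKM total in the epithelium of bile duct and 3.58% in that of pancreatic duct. They held 7.56%, 8.45% and 8.74% in bile duct organoids 1 to 3, and 7.13%, 7.24% and 8.47% in pancreatic duct organoids 1 to 3. Every organoid lay above both epithelia. The organoid means were 8.25% ± 0.613 (SD, n = 3) and 7.61% ± 0.744 (SD, n = 3), or 1.77 and 2.13 times the epithelium of the same organ, each of which is 1 library. The 2 organoid groups overlapped and did not pass an exact two-sided permutation test (p = 0.3, where 3 against 3 cannot go below 0.1). With mitochondrial and acinar transcripts left out of the total, the ratios were 1.29 and 1.56. With the 706 copies counted in, the share was 6.48% and 5.55% in the epithelia and 11.99% to 12.88% in organoids.

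**Figure D1:**
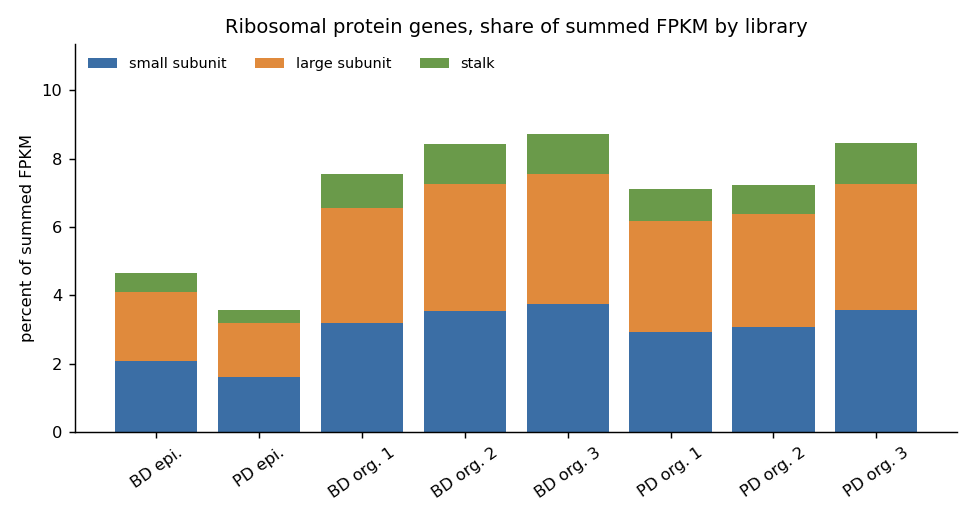
Percent of each library's summed FPKM (vertical axis, from 0) held by ribosomal protein genes, in bile duct (BD) and pancreatic duct (PD) epithelium and in the 3 organoid (org.) libraries of each organ, with bar colours for small-subunit, large-subunit and stalk genes; each bar is 1 library. The 6 organoid bars reach 7.13% to 8.74%, above 4.66% and 3.58% in the epithelia, and each colour is taller in the organoids than in the epithelia.

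All 3 classes held a larger share in organoids, and the stalk genes had the widest ratio. Organoid means were 1.68 and 1.97 times the epithelium (bile duct first) for small-subunit genes. The ratios were 1.79 and 2.18 for large-subunit genes and 2.03 and 2.55 for stalk genes. Small-subunit genes held 2.09% (bile duct) and 1.62% (pancreatic duct) of the total in epithelium, and 3.50% ± 0.288 and 3.19% ± 0.333 (SD, n = 3) in the organoids of these organs. Large-subunit genes held 2.02% and 1.57% in the epithelia and 3.63% ± 0.221 and 3.42% ± 0.237 (SD, n = 3) in the organoids. The 3 stalk genes alone held 0.554% and 0.393% in the epithelia and 1.12% ± 0.110 and 1.00% ± 0.191 (SD, n = 3) in the organoids. Among organoids the proliferation marker Mki67 stood at 62.7, 61.1 and 52.0 scaled FPKM in bile duct organoids 2 and 3 and pancreatic duct organoid 3, the libraries with the highest ribosomal protein shares, and at 17.9 to 30.2 in the other 3. Those other 3 also held more in copies of these genes (4.87% to 5.11% of summed FPKM, against 4.13% to 4.41%), and with copies the 6 shares lay between 11.99% and 12.88%. The part of Mki67 or of copies in the share was not tested.

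Across genes the level spanned a wide range. Of the 81 genes, 78 reached 1 scaled FPKM in every library and 57 reached 100 in every organoid. By the mean over libraries the highest were Rplp1, Rpl8, Rplp0, Rps3a1 and Rps15. Rplp1, a stalk protein that recruits elongation factors, stood at 1722 (bile duct) and 1195 (pancreatic duct) in the epithelia and between 1608 and 2014 in organoids. Where 2 epithelium values follow below, bile duct comes first. Rpl8, at the peptidyl transferase centre, stood at 732 and 621 in the epithelia and between 1041 and 1273 in organoids. Among the 6 organoids their highest to lowest ratios were 1.25 and 1.22. Rplp2, the partner of Rplp1 in the stalk, stood at 153 and 129 in the epithelia and between 178 and 214 in organoids, far below Rplp1 in every library. FPKM divides by annotated exon length, which is 2072 bases for Rplp2 and 499 for Rplp1. That gap, and the ranking of genes by level, therefore also depend on the annotation.

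At the other end, Rpl21, Rpl34, Rpl13a and Rpl29 were the lowest genes that every library expressed, together with Rpl22l1, a paralog of Rpl22. Of the reads of gene and copies, the own row of Rpl21 held 2.70% to 38.0%, that of Rpl34 65.4% in bile duct epithelium and 5.23% or less elsewhere, and that of Rpl29 80.7% in bile duct epithelium and 16.6% or less elsewhere. Rpl13a, which also carries roles outside the ribosome, stood at 3.21 and 2.54 in the epithelia and at 12.3 to 16.7 in organoids, and 35.4% of its annotated exon length overlaps another gene model. A further 3 genes stayed under 1 scaled FPKM in at least 1 library. Rpl24 held 4 to 17 reads, with 46.99% of its exon length shared with a second gene model (Gm28037). Rpl3l, a heart and skeletal muscle form of Rpl3, held 0 to 3 reads. Rpl39l, a testis form of Rpl39, held 1 read in bile duct epithelium and 0 in the other libraries.

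Comparing organoids with the epithelium they were set against asks how these genes differ between tissue and culture, and with 1 epithelium library an organ it has no p-value. A gene was counted as higher or lower when the organoid mean was at least 2-fold away on the log2(scaled FPKM + 1) scale and all 3 organoids lay on one side. In bile duct 3 of the 78 genes were higher by this rule (Rpl13a, Rpl18 and Rps19), against 12.6% of all 15424 genes, and 8 were lower (Rpl34, Rpl29, Rps18, Rpl12, Rpl21, Rpl26, Rpl35a and Rpl23a), against 26.3% of all genes. In pancreatic duct 8 were higher (Rps2, Rpl13a, Rpl18, Rpl13, Rps19, Rplp0, Rps27l and Rpl28), against 15% of 15201 genes, and 4 were lower (Rpl21, Rpl23a, Rpl26 and Rpl35a), against 25.5%. On this scale the share of members past 2-fold was below that of all genes in both directions and both organs. On FPKM as deposited that did not hold for pancreatic duct, where 20 members were higher (25.6%, against 20.9% of all genes) and 2 lower (2.56%, against 22.1%), while in bile duct 9 were higher (11.5%, against 17.8%) and 8 lower (10.3%, against 23.2%). Without pancreatic duct organoid 2 the lower count there was 2.

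Small differences in one direction were common instead. With all 3 organoids above the epithelium by any amount, 46 of 78 genes qualified in bile duct (38.1% of all genes did) and 58 of 78 in pancreatic duct (39.1%). All 3 organoids lay below in 18 genes of 78 in bile duct (45.1% of all genes) and in 10 in pancreatic duct (46%). On the log2 scale the median difference was 0.22 (bile duct) and 0.47 (pancreatic duct), where the median of all genes was -0.09 in each. In single libraries the member median was 0.25, 0.21 and 0.23 for bile duct organoids 1 to 3 and 0.42, 0.46 and 0.50 for pancreatic duct organoids 1 to 3. The deposited FPKM without rescaling moved the median of all genes to 0.16 and 0.19 and that of the members to 0.48 and 0.77, so that the gap between members and all genes was 0.31 and 0.57 with rescaling and 0.32 and 0.58 without.

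In all 6 organoids 46 of 78 genes lay above the epithelium of their organ (33.7% of all 14419 genes tested in both) and 9 lay below (36.6%). In 4 genes the bile duct organoids all lay below and the pancreatic duct organoids all above (2.1% of all genes), and the reverse held for 0 (1.54%). Rpl18, a large-subunit protein, stood at 88.2 in bile duct epithelium and 205, 233 and 224 in the organoids, and at 74.3 in pancreatic duct epithelium and 227, 212 and 201 in the organoids. Its differences of 1.31 ± 0.10 and 1.51 ± 0.09 (log2, SD over 3 organoids) were wider than the spread between organoids. Rps19, needed for small-subunit maturation and mutated in Diamond-Blackfan anaemia, stood at 49.7 and 42.9 in the epithelia and between 95.7 and 116 in organoids. Rplp0, the stalk's anchor, stood at 698 and 475 in the epithelia and at 1185, 1370 and 1316 in bile duct organoids and 1264, 838 and 1372 in pancreatic duct organoids. The Rplp0 copy Gm8730 stood at 672 in pancreatic duct organoid 2, where Rplp0 was lowest, and at 130 to 245 in the other organoids. The part of this copy in the Rplp0 values was not tested. For Rpl18, Rps19 and Rplp0 no organoid overlapped either epithelium.

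Proteins with known roles beyond the ribosome varied in how far culture and tissue were apart. Rps6, the substrate of the S6 kinases, stood at 515 and 439 in the epithelia and between 512 and 595 in organoids, which is close to the epithelia. Rpl5 and Rpl11, which bind Mdm2 as part of the 5S RNA particle, differed from each other. Rpl5 stood at 195 and 153 in the epithelia and 182 to 212 in organoids, and Rpl11 at 130 and 108 in the epithelia and 192 to 224 in organoids. For Rpl11 the organoids lay clear of both epithelia, and for Rpl5 they did not. Rps3, which has no copy in the table, stood at 165 and 139 in the epithelia and 254 to 289 in organoids. Rps27a, made as a fusion with ubiquitin, stood at 203 and 150 in the epithelia and 155 to 200 in organoids, overlapping the range of the epithelia. Rpl41, the shortest of these proteins, stood at 500 and 413 in the epithelia and 489 to 701 in organoids.

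Rps29 and Rpl19 are examples of the 9 genes below the epithelium in every organoid of both organs. Rps29, a small zinc-binding protein, stood at 374 and 315 in the epithelia and at 286, 221 and 255 in bile duct organoids and 222, 222 and 167 in pancreatic duct organoids. Rpl19, a large-subunit protein at the bridge between subunits, stood at 196 and 158 in the epithelia and at 89.4 to 139 in organoids. Neither gene reached 2-fold.

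**Figure D2:**
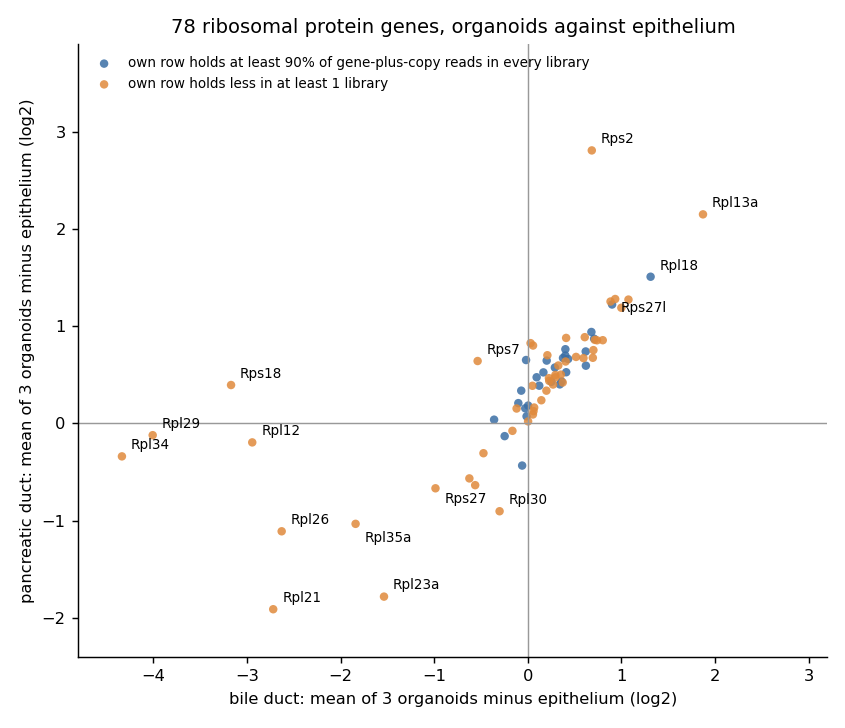
Difference between the mean of 3 organoids and the epithelium in bile duct (horizontal axis) and pancreatic duct (vertical axis), on the log2(scaled FPKM + 1) scale, for the 78 genes; blue points are the 28 genes whose own row held at least 90% of the reads of gene and copies in every library, orange points the other 50. Of these genes, 46 had all 6 organoids above the epithelium, and the labelled genes far to the left or bottom (Rpl34, Rpl29, Rps18, Rpl12, Rpl26, Rpl21) are orange.

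For many of these genes the rows of copies also held reads. Whether those reads came from the gene's own mRNA or from the copies was not tested. For 15 genes the own row's share of the reads of gene and copies ranged over more than 20 percentage points between libraries, and all 8 genes called lower in bile duct were among them. A row that is low while its copies are not changes this share by construction, so that overlap is no separate result. Smaller differences with organoids below the epithelium were also found outside these 15 genes, such as those of Rps29 and Rpl19 above. Rps2 held 84.2% and 17.8% in the epithelia. It held 4.90%, 51.9% and 92.5% in bile duct organoids 1 to 3 and 6.52%, 6.59% and 59.8% in pancreatic duct organoids 1 to 3. The share was therefore low in bile duct organoid 1 and pancreatic duct organoids 1 and 2, across the organ labels, and higher in the other 3 organoids. The 3 low organoids were also the shallowest of the organoids, at 15.4 M to 17.8 M reads against 18.4 M to 20.8 M in the other 3. Bile duct epithelium, the shallowest library of all at 12.9 M, held 84.2%, and pancreatic duct epithelium held 17.8% at 15.5 M. The part of depth was not tested.

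Rps2 alone stood at 201 and 17.6 scaled FPKM in the epithelia, at 44.1, 642 and 1184 in bile duct organoids and at 58.5, 53.0 and 683 in pancreatic duct organoids. With the reads of its 51 copies added, it stood at 239 and 98.7 in the epithelia, 899, 1237 and 1280 in bile duct organoids and 898, 804 and 1142 in pancreatic duct organoids. The range over the 6 organoids was 26.9-fold in the gene's row and 1.59-fold with copies. The sum lay above both epithelia in every organoid, by 2.23 in bile duct and 3.23 in pancreatic duct (log2).

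Rpl26 alone stood at 300 and 29.2 in the epithelia, at 12.4, 127 and 66.7 in bile duct organoids and at 11.9, 9.39 and 19.3 in pancreatic duct organoids. With copies it stood between 277 and 370 in all 8 libraries. Adding the copies took its difference from epithelium from -2.63 to -0.31 (bile duct) and from -1.11 to 0.06 (pancreatic duct), so the pancreatic duct direction changed. Rpl30, a large-subunit protein that binds its own transcript in yeast, ranged from 15.9 to 144 among organoids in its own row and from 123 to 155 with copies. Rpl23a, whose product receives nascent chains at the exit tunnel, was lower in both organs in its own row (-1.54 and -1.78) and changed direction with copies (0.01 and 0.20). Other gene models cover 62.3% of its exon length, 2.60% of it on the same strand, and the widest of them is Tlcd1, a protein-coding gene on the opposite strand.

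Rps18, Rpl29 and Rpl34 were high in 1 library, bile duct epithelium. Rps18, a protein of the small subunit's head, stood at 144 there, 10.5 in the other epithelium and 13.2 to 16.7 in organoids. Rpl29 stood at 157 there, 7.53 in the other epithelium and 5.11 to 11.8 in organoids. Rpl34 stood at 109 there, 5.64 in the other epithelium and 2.99 to 5.89 in organoids.

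With copies the gap closed only in part. Rps18 stood at 161 in the epithelium of bile duct, 36.8 in that of pancreatic duct and 83.7 to 92.4 in organoids. Rpl29 stood at 194, 45.4 and 86.1 to 99.1 in the same order, and Rpl34 at 166, 114 and 99.6 to 123. For Rps18 and Rpl29 the organoids then lay between the epithelia, below that of bile duct and above that of pancreatic duct.

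**Figure D3:**
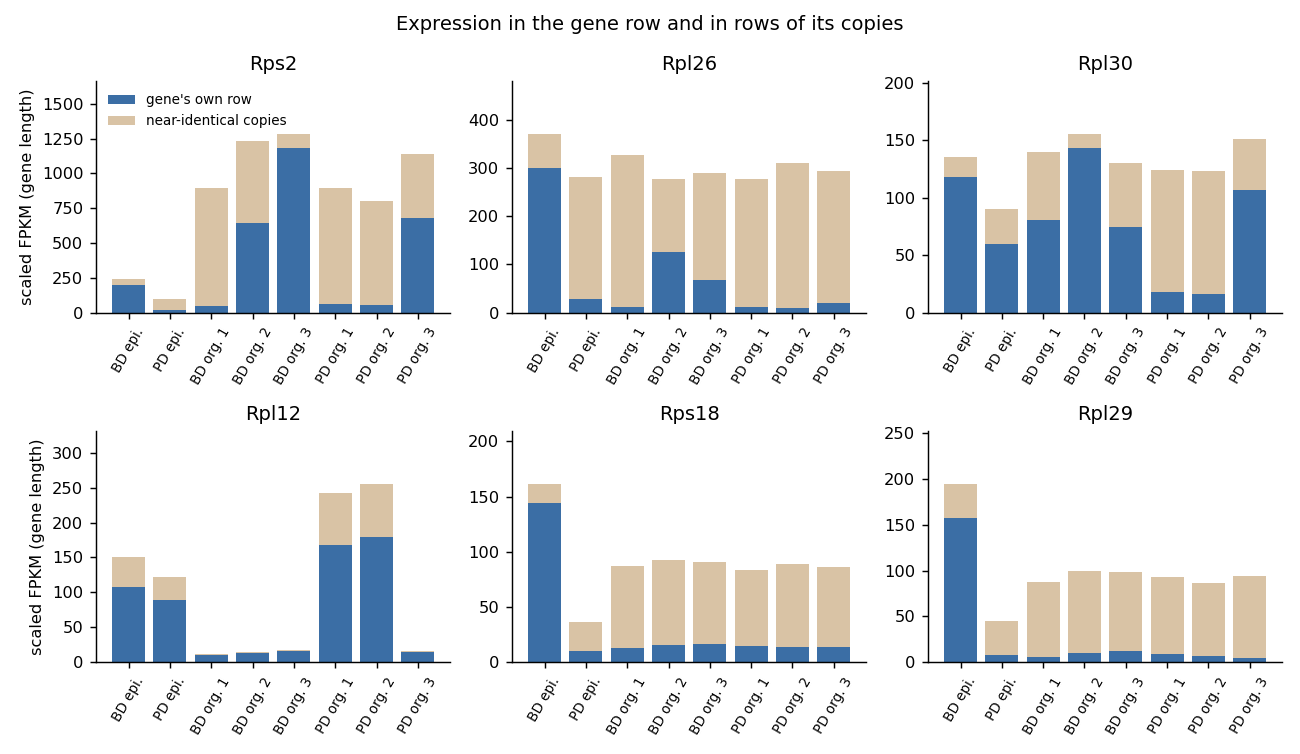
Scaled FPKM (vertical axes, from 0) of 6 genes in each library: reads in the gene's own row (blue) and reads of its near-identical copies expressed over the gene's length (tan), each bar 1 library. For Rps2, Rpl26 and Rpl30 the blue part changes from library to library while the whole bar is more even among organoids; for Rpl12 the whole bar is tall in both epithelia and in pancreatic duct organoids 1 and 2 only.

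Rpl12 kept a wide range with copies. It stood at 108 and 88.8 scaled FPKM in the epithelia, at 10.3, 13.9 and 15.7 in bile duct organoids and at 168, 179 and 14.8 in pancreatic duct organoids. Pancreatic duct organoid 3 thus lay with the bile duct organoids. Its identical copy Gm10275 stood at 239 and 185 in the epithelia, at 5.73, 4.81 and 5.39 in bile duct organoids and at 399, 414 and 3.04 in pancreatic duct organoids, high and low in the same libraries as the gene. With copies Rpl12 ranged from 11.7 to 255 among organoids, 21.8-fold. The next widest with copies were Rpl21 at 2.15-fold and Rpl35a at 2.08-fold. An annotated ribosomal RNA row, Gm23935, stood at 2242 and 2332 in the same pancreatic duct organoids 1 and 2 and at 91.0 to 339 in the other 4 organoids, but at 39.1 and 46.5 in the epithelia, where Rpl12 was high. Its part in the Rpl12 values was not tested.

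Leaving aside the genes with a larger part of the reads in copy rows changed the medians little. For the 28 genes whose own row held at least 90% of the reads in every library, a cut chosen after seeing the data, the median difference was 0.27 (bile duct) and 0.52 (pancreatic duct). Their differences ran from -0.36 to 1.31 and from -0.43 to 1.51. By the 2-fold rule 1 of them was higher and 0 lower in bile duct, and 2 were higher and 0 lower in pancreatic duct. The other 50 genes held all 8 and all 4 lower calls. The cut is computed from the same read values as the calls. A row that is low while its copies are not tends to fail it by construction, so these counts are no separate result. With copies added to all 78 genes, 5 were higher and 2 lower in bile duct and 9 were higher and 0 lower in pancreatic duct.

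**Figure D4:**
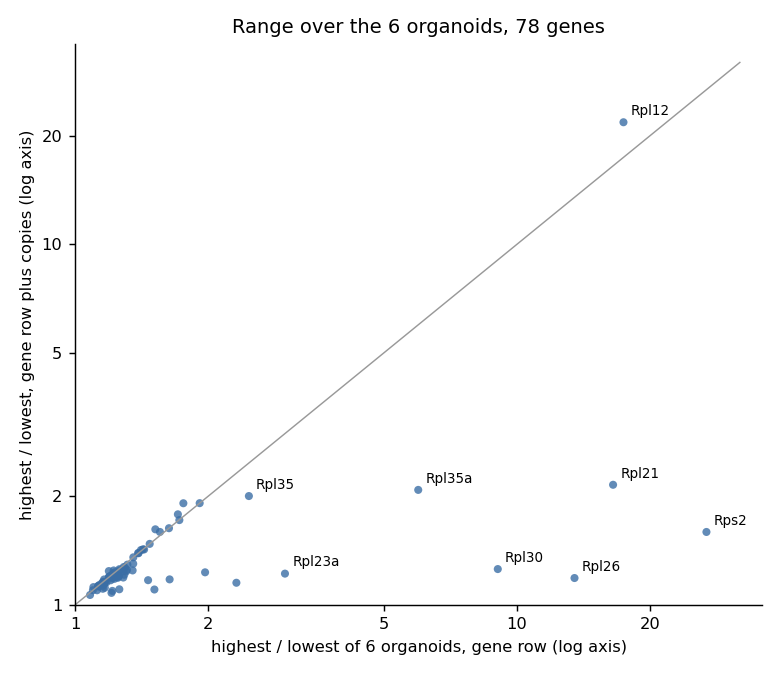
Ratio of the highest to the lowest of the 6 organoids for each of the 78 genes, from the gene's own row (horizontal, log axis) and from the row plus copies (vertical, log axis); the line marks equal ratios. Most genes lie near 1.2 on both axes, Rps2, Rpl26 and Rpl30 drop from 9.06-fold or more to 1.59-fold or less, and Rpl12 stays near 20-fold.

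Bile duct and pancreatic duct organoids could be compared with a test, limma on log2(scaled FPKM + 1) over 12094 genes with Benjamini-Hochberg adjustment. Across all genes 0 passed an adjusted p of 0.05, hence 0% and 0 of the 78 members. Without adjustment 309 genes (2.55%) had a p under 0.05, among them 1 member, Rpl12. Its bile duct minus pancreatic duct difference was -2.48 (SE 0.94, adjusted p = 1.00 in limma). Its 3 bile duct organoids did not lie apart from all pancreatic duct organoids, since the third of these was low. Without pancreatic duct organoid 3, 11 genes passed the adjusted threshold in limma, among them Rpl12 (-3.64).

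Next in size after Rpl12 were Rpl26 at 1.80 (SE 0.81), Rpl30 at 1.57 (SE 0.74) and Rps2 at 1.32 (SE 1.51), none past the adjusted threshold in limma. For Rpl26, Rpl30 and Rps2 the own row's share of the reads of gene and copies varied widely between libraries. The members' median difference was 0.10 (all genes 0.01), and 70 of 78 (89.7%) were higher in bile duct organoids on average, as were 51.7% of all genes. Every bile duct organoid lay above every pancreatic duct organoid for 9 genes (11.5% of members, 3.6% of all genes), among them Rpl11, Rpl38, Rplp2 and Rps27. The reverse held for 0 members (3.22% of all genes). Of these 9 the widest difference was that of Rpl38, needed for translation of certain Hox mRNAs in embryos, at 290, 220 and 232 in bile duct organoids and 211, 216 and 165 in pancreatic duct organoids, a difference of 0.32 (SE 0.17). None of the 9 passed the adjusted threshold in limma.

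The 6 organoids were close to each other for most members. The ratio of the highest to the lowest organoid had a median of 1.26 over the 78 genes and 1.21 with copies, against 1.44 over the 5342 genes with a mean of at least 10 scaled FPKM. It exceeded 2 for 9 members (4 with copies) and for 17.95% of those genes. The rank order of the 78 genes gave Spearman's rho of 0.97 to 0.98 among bile duct organoid 1 and pancreatic duct organoids 1 and 2, and 0.99 among the other 3 organoids. Between these sets rho was 0.92 to 0.94. With copies, rho over all pairs of organoids ran from 0.967 to 0.996. These are correlations across genes that share a library, given as a description.

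The 2 epithelia differed in one direction. Of the 78 genes 77 were higher in bile duct epithelium by any amount (46.6% of all 15533 genes were), and Rpl22l1 was the exception. The median difference was 0.32, against -0.04 for all genes, with 1 library on each side and no test. At least 2-fold higher were 7 members (9.05% of all genes): Rpl29, Rpl34, Rps18, Rps2, Rpl26, Rpl35a and Rpl21, and 0 were 2-fold lower (4.67%). With copies 4 were 2-fold higher and 77 of 78 were higher by any amount. Of the marker sums given above, the epithelial, immune and hepatocyte ones were higher in the epithelium of bile duct, and the acinar, fibroblast, smooth muscle and endothelial ones in that of pancreatic duct. All 10 proliferation genes were also higher in the epithelium of bile duct, 1 of them at least 2-fold. The part of these in the difference was not tested.

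For a few proteins the genome holds an expressed paralog, and 3 such pairs were at 1 scaled FPKM or more in every organoid. FPKM is per annotated exon length, 1043 bases for Rps27 and 816 for Rps27l. A percent between genes therefore also depends on the annotation, and on whether each row holds its own reads. The same lengths apply to every library. Rps27l, a p53-responsive relative of Rps27, took a larger share of the pair in culture than in epithelium. It stood at 32.6% and 36.1% of the Rps27 level in the epithelia, at 108%, 117% and 142% in bile duct organoids and at 193%, 98.6% and 129% in pancreatic duct organoids. All 6 organoids lay above both epithelia. The row of Rps27 held 63.8% to 74.3% of the reads of gene and copies. With copies added to both genes, a setting chosen after seeing the data, Rps27l stood at 23.5% and 26.8% of Rps27 in the epithelia and at 63.0% to 125% in organoids, still above both epithelia.

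Both genes contributed to that ratio. Rps27 stood at 350 and 248 scaled FPKM in the epithelia and at 138 to 191 in organoids, a difference of -0.99 ± 0.11 and -0.67 ± 0.15 (log2, SD over 3 organoids, bile duct first). Rps27l stood at 114 and 89.5 in the epithelia and at 163 to 266 in organoids, a difference of 0.90 ± 0.12 and 1.22 ± 0.35. Rps27rt, a protein-coding row outside the symbol rule that is identical to Rps27 over 341 aligned bases and is counted among its copies, stood at 384 and 239 in the epithelia and 201 to 292 in organoids.

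The other pairs were closer between tissue and culture. Rpl22l1, which can replace Rpl22, stood at 19.0% and 29.9% of the Rpl22 level in the epithelia and at no more than 19.1% in any organoid. Rpl7l1, a nucleolar relative of Rpl7, stood at 8.80% and 10.2% of the Rpl7 level in the epithelia and at 9.86% to 16.7% in organoids. Between the organoid groups none of the 3 log ratios differed by an exact two-sided permutation test (p = 0.7 for Rps27l, 0.7 for Rpl22l1 and 0.5 for Rpl7l1, all 0.7 after adjustment over the 3 pairs, smallest possible p 0.1). Rpl3l and Rpl39l were at or below 0.0909% of Rpl3 and Rpl39. Rps4l and Rpl36al, which fall outside the rule for members, were at 0.0585% to 4.70% of Rps4x and 0.194% to 0.899% of Rpl36a.

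**Figure D5:**
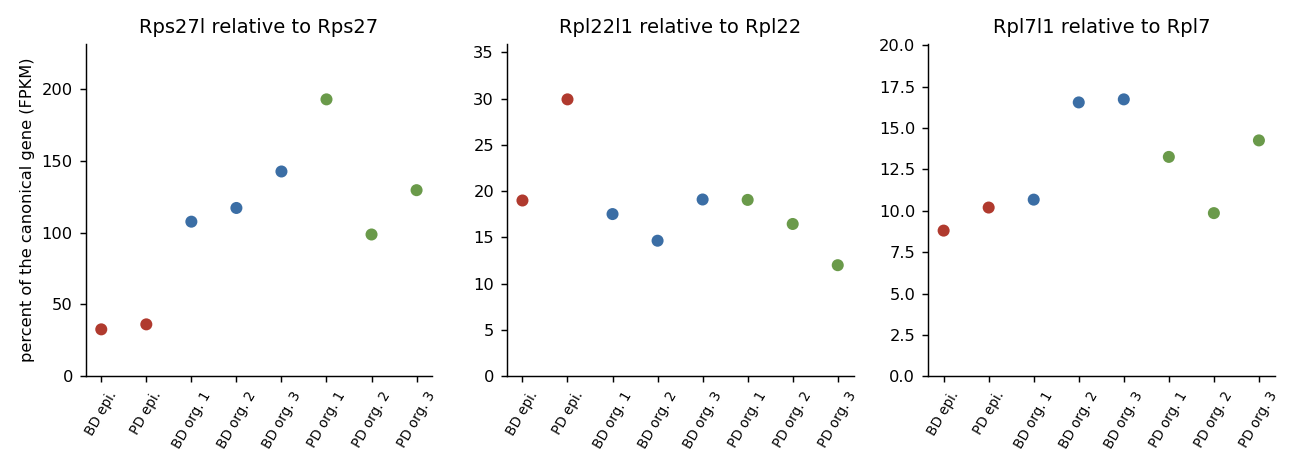
Level of 3 paralogs as percent of the canonical gene's FPKM (vertical axes, from 0) in each library: epithelia in red, bile duct organoids in blue, pancreatic duct organoids in green, each point 1 library. Rps27l stands at 32.6% and 36.1% in the epithelia and at 98.6% or more in every organoid, while Rpl22l1 and Rpl7l1 stay under 30% of their partners.

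A pair of ribosomal proteins whose symbols fall outside the rule also lay above the epithelia in every organoid. Rack1, a scaffold on the small subunit, stood at 146 and 117 in the epithelia and 219 to 237 in organoids. Fau, the precursor of RPS30, stood at 355 and 276 in the epithelia and 444 to 523 in organoids.

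The rest of the translation machinery was set beside the ribosomal proteins by lists chosen with earlier results of these data known. For each count below, the share of all genes was 12.6% higher and 26.3% lower in bile duct, and 15% higher and 25.5% lower in pancreatic duct. Among 14 genes for elongation factors and other proteins known or proposed to have TOP mRNAs, 7 were 2-fold higher and 0 lower in bile duct organoids, and 8 higher and 0 lower in pancreatic duct organoids, with medians of 0.94 and 1.15. Pabpc1, the poly(A)-binding protein, stood at 98.9 and 79.0 in the epithelia and 283 to 314 in organoids. Eef2, the translocation factor, stood at 637 and 535 in the epithelia and 1329 to 1702 in organoids. Tpt1 went the other way, from 948 and 764 in the epithelia to 418 to 655 in organoids, without reaching 2-fold.

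Among 35 initiation factors 11 were higher and 1 lower in bile duct, and 11 higher and 2 lower in pancreatic duct, with medians of 0.74 and 0.78. Eif5a stood at 120 and 119 in the epithelia and 331 to 538 in organoids. Eif4a2, a paralog of the helicase Eif4a1, was the gene lower in both organs, at 122 and 156 in the epithelia and 45.4 to 54.7 in organoids.

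Among 15 genes of mTORC1 and Myc control, 5 were higher and 0 lower in each organ, with medians of 0.62 and 0.60. Myc, a transcription factor that drives ribosomal gene expression, stood at 11.01 and 13.5 in the epithelia and 56.7 to 85.5 in organoids. Larp1, the TOP-binding protein, stood at 20.8 and 15.6 in the epithelia and 43.0 to 61.6 in organoids. Among 77 genes for mitochondrial ribosomal proteins 6 were higher and 0 lower in bile duct and 11 higher and 0 lower in pancreatic duct, with medians of 0.35 and 0.39. The shares of this list called higher were not above those of all genes.

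The 10 proliferation genes were all 2-fold higher in both organs, with medians of 2.52 and 2.68. The cytosolic ribosomal protein medians of 0.22 and 0.47 thus stood between the median of all genes, -0.09, and those of the elongation factor, initiation factor and proliferation lists. No test was made between lists.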

How the data were processed

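Poly(A) RNA of 2 duct epithelium libraries and 6 organoid libraries was sequenced, per the labels' protocols (poly-T beads, NEBNext Ultra kit). The authors deposited 1 table of FPKM values with GRCm38 positions. Bowtie2 2.2.3, HISAT2 2.1.0, TopHat2 and HTSeq 0.6.0 are named in the submitters' processing notes without a role, and how reads matching several places were counted is not given in the sources used here. FPKM times GENCODE M21 exon length gave whole multiples of 1 read (tolerance 0.05) for 91.9% to 93.2% of values under 500 reads, from which depths and reads per gene were taken.

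Libraries were rescaled by a trimmed mean of log ratios (30% of ratios and 5% of levels trimmed, genes at 1 FPKM or more in a library). Organoids were compared with limma 3.58.1 (R 4.3.3) on log2(scaled FPKM + 1) with a trend, for genes at 1 FPKM or more in at least 3 organoids, with Benjamini-Hochberg adjustment at 0.05. On simulated data with the observed noise over the 12094 genes of this comparison, 46% of 2-fold and 77% of 4-fold changes were recovered. Comparisons with an epithelium library used the 2-fold rule without a test, for genes at 1 FPKM or more in either group. Copies were found with blastn 2.17.0, and adding their reads was chosen after seeing the data.

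Genes were named by rule: the 5 highest and 5 lowest levels, the 5 widest differences in each direction of each comparison, genes under 1 FPKM, paralog pairs, stalk genes, and Rps6, Rps27a, Rps3, Rpl5, Rpl11 and Rpl41. Rpl19, Rps29 and Rpl38 and the genes named from other lists were chosen after their values were seen. The members and lists were chosen with earlier results of these data known. Some results are not reported here.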

Additional observations from a re-analysis of the deposited data

Results flagged for a closer look

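In 4 genes every bile duct organoid lay below its epithelium while every pancreatic duct organoid lay above its own (5.13% of the 78 members, 2.1% of all 14419 genes tested in both organs), and the reverse held for 0 members (1.54% of all genes). This contrast of organs was not tested, since each epithelium is 1 library. For Rps18 the organoid minus epithelium difference was -3.17 in bile duct and 0.39 in pancreatic duct, a gap of -3.56 (log2), and with copies added the differences were -0.83 and 1.21. For Rps7, mutated in some cases of Diamond-Blackfan anaemia, they were -0.54 and 0.64, a gap of -1.18, and with copies -0.01 and 0.53. The gap was -0.31 for Rpl37 and -0.27 for Rps27a. Over the 78 members the median difference was 0.22 in bile duct and 0.47 in pancreatic duct, and 77 were higher in bile duct than in pancreatic duct epithelium. A negative gap was therefore not particular to these 4 genes.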

How the results depend on the processing

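Without rescaling (FPKM as deposited) the bile duct median was 0.48 with 9 members 2-fold higher, and the pancreatic duct median 0.77 with 20 higher and 2 lower; median of ratios scaling gave a bile duct median of 0.17. With the copies added, an alternative chosen after seeing the data, the medians over the members that then passed the filter were 0.27 and 0.53, 5 members were higher and 2 lower in bile duct, 0 were lower in pancreatic duct, 4 were 2-fold higher in bile duct epithelium, the bile duct share ratio was 1.96, and Rpl23a (0.0072 and 0.20) and Rpl26 in pancreatic duct (0.061) changed direction. The share ratios were 1.41 and 1.85 without mitochondrial transcripts, 1.29 and 1.56 without acinar genes as well, and 1.36 and 1.73 for FPKM times exon length. In each case the cause was not tested beyond the construction of the alternative.

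Leaving out each organoid in turn gave 0 to 11 genes past the adjusted threshold, 0 to 1 members among them and 0 to 4 members at an unadjusted p under 0.05; the largest of each came without pancreatic duct organoid 3. The pancreatic duct median ran from 0.48 to 0.52 and its lower count from 2 to 5, with 2 without pancreatic duct organoid 2. In 158 further recomputations of the comparisons the values kept their direction and stayed within 1 SD, or counts within 1.5 times. Of the values of single genes, 118 moved by more than their spread, 75 of them on FPKM as deposited and 28 with copies. The organoid replicate numbers did not pair the libraries: same-numbered correlations were -0.10, -0.44 and 0.48, and with a replicate block 0 genes passed the adjusted threshold and 1 member had an unadjusted p under 0.05. The rows of Rpl24, Rpl3l and Rpl39l held at most 17 reads, which limits their precision.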
